A study of Mus musculus with 20 samples.

Results

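Heat shock proteins and DnaJ co-chaperones were followed as a gene module in visceral adipose tissue of the mouse. The members were all genes whose name on the array belongs to the Dnaja, Dnajb, Dnajc, Hspa, Hspb or Hsp90 series, with Hsph1, Hspd1 and Hspe1. This gave 70 gene names on 153 probes, out of 37074 names on the array. Of these, 68 names (140 probes) were well above the local background on at least 6 of the 20 arrays and were tested, among 25618 tested names in all. Dnajb7, which passed on 2 arrays, and Hspb3, which passed on 1 array, were not tested. The choice of members used no difference between groups. The 68 tested genes comprise 4 of the Dnaja, 12 of the Dnajb and 26 of the Dnajc type, 13 Hspa genes of the Hsp70 family, 7 genes with an Hspb name (the series of small heat shock proteins), 3 Hsp90 genes, the chaperonin pair Hspd1 and Hspe1, and Hsph1. Families were assigned by name only.

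The samples were epididymal fat pads of male C57bl/6J mice of the F3 generation, with 1 array per mouse. The Ref group (label STD Cont, n = 6) descended from the control or oleic lineage, whose growing diet was supplemented with high-oleic sunflower oil over the generations, and ate a low-fat reference diet. The HFoleic group (label HFD Cont, n = 6) came from the same lineage and ate a high-fat, high-sucrose diet as an obesogenic challenge. The HFepa group (label HFD O3, n = 8) ate that same challenge diet but descended from the omega 3 lineage, whose growing diet was enriched in eicosapentaenoic acid (EPA) by fish oil. The omega 3 lineage on the reference diet is not among these samples, so lineage can be compared on the challenge diet only. Only mice whose RNA passed an integrity minimum were put on arrays, and per the labels all samples shared the same wash batch.

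Chaperones bind proteins that are not yet, or no longer, folded. Hsp70 proteins do so in a cycle driven by ATP, and J proteins (DnaJ co-chaperones) deliver the client and trigger the hydrolysis of ATP, while nucleotide exchange factors such as the Hsp110 protein Hsph1 reset the cycle. Hsp90 acts later on signalling proteins, small heat shock proteins hold aggregating proteins without ATP, and Hspd1 with its lid Hspe1 forms the folding chamber of mitochondria. When misfolded proteins accumulate in the cytosol, the transcription factor Hsf1 induces many of these genes through heat shock elements, and in the endoplasmic reticulum (ER) the unfolded protein response does the same for its own chaperones through ER stress elements. Adipocytes make and secrete large amounts of protein, and obesity is known as a state of ER stress in fat.

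Levels are log2 quantile-normalized signals of the brightest tested probe of a gene, so 1 unit is 2-fold, and levels of different genes are not compared because probes differ in brightness. A gene is called when its adjusted p (limma, Benjamini–Hochberg over all 39390 tested probes) is below 0.05. Of the spots of an array, 66.1% to 71.9% were well above background, with a median signal of 83 to 114 units and no saturated spot. The arrays lay on 3 slides, each with all 3 groups. Of 10 adipocyte markers all 10 were among the tested genes, with a mean level of 15.6 to 15.9 in Ref, 15.4 to 15.8 in HFoleic and 15.5 to 15.8 in HFepa mice. In HFoleic vs. Ref mice Lep was called higher and Lipe, Pnpla2 and Cfd lower among them. Markers of other cell types moved with the groups: 8 of 10 macrophage markers and 3 of 7 fibroblast markers were called higher in HFoleic than in Ref mice, and the mean macrophage level was 11.8 to 12.3 in Ref, 12.6 to 13.8 in HFoleic and 11.7 to 13.7 in HFepa mice, while the mean fibroblast level was 12.8 to 13.3, 13.3 to 14.1 and 12.8 to 13.5. The part of these cells in the results below was not tested, and in bulk tissue fewer cells of a type cannot be told apart from less RNA per cell.

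A set of 4 arrays stood apart by testis transcripts. Of 10 testis germ cell markers, 5 were tested, and their mean level was 7.96 in Ref mouse 3, 8.09 in Ref mouse 6, 8.70 in HFoleic mouse 5 and 7.79 in HFepa mouse 4, against 5.87 to 6.56 in the other 16 mice. Without these 4 arrays, 4 Ref, 5 HFoleic and 7 HFepa mice remain, and the calls described below are also given on them. Markers of other tissues near the fat pad differed between arrays too. The mean of the 4 tested epididymis markers (of 10) was 9.03 in HFepa mouse 2, 8.87 in Ref mouse 3 and 7.79 in Ref mouse 6, against 6.41 to 7.26 in the other mice, and that of 7 mesothelial markers ranged from 7.33 to 9.84 in Ref, 6.28 to 9.06 in HFoleic and 6.999 to 9.69 in HFepa mice. Their part in the results was not tested beyond leaving out each array in turn.

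In HFoleic compared with Ref mice members were called in both directions, much as over the whole array. Hspa8 of the cytosol, Hspa5 of the ER and the J proteins Dnajb13 and Dnajc24 were among those called higher, and the mitochondrial J proteins Dnaja3 and Dnajc30 were among those called lower. Of the 68 tested members, 24 (35.3%) were called, 14 higher and 10 lower. Over all tested genes 31.8% were called, 15.2% higher and 16.7% lower. The share of called members was close to that background, and their median log2 fold change was 0.01, against -0.04 over all genes. Among the 42 J proteins 7 were higher and 9 were lower, whereas among the 26 heat shock proteins 7 were higher and 1 was lower. Without the 4 arrays that stood apart 11 of 68 members were called, with 18.1% of all genes called.

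In HFepa compared with Ref mice 6 members were called (8.82%). Hsph1, Hspa8, Dnaja1, Dnajb13 and Dnajc14 were higher and Dnajc30 was lower. Over all genes 2.46% were called, 1.03% higher and 1.42% lower. The median log2 fold change of the members was 0.03, against -0.02 over all genes. This count depended on single arrays. It was 12 without HFepa mouse 3, 1 without Ref mouse 3, Ref mouse 6 or HFepa mouse 6, 2 without Ref mouse 4, Ref mouse 5, HFepa mouse 1 or HFepa mouse 7, and 3 without HFepa mouse 5. Over all tested probes the calls went from 892 to 2513 without HFepa mouse 3 and to 130 without Ref mouse 6. The member count was 0 without the 4 arrays that stood apart, where no gene of the whole array was called on its brightest probe either. Both comparisons share the Ref mice, so their values are given side by side and are not independent of each other.

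In HFepa compared with HFoleic mice, the comparison of the lineages on the same diet, no gene was called by limma on its brightest probe (0% of all genes, members included), and 1 of all 39390 tested probes was called, which belongs to no member. At an unadjusted p below 0.05 there were 19 of 68 members, with 20.8% of all genes. Of the 24 members called in HFoleic vs. Ref, 22 had their HFepa mean between the Ref and HFoleic means. For Hspa8 and Hsph1 the HFepa mean lay beyond that of HFoleic. The 24 members were selected for a difference between Ref and HFoleic on these same arrays, so an HFepa mean in between is partly built in. The same share over all called genes was not computed, so this count does not show an effect of lineage on the members.

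**Figure D1:**
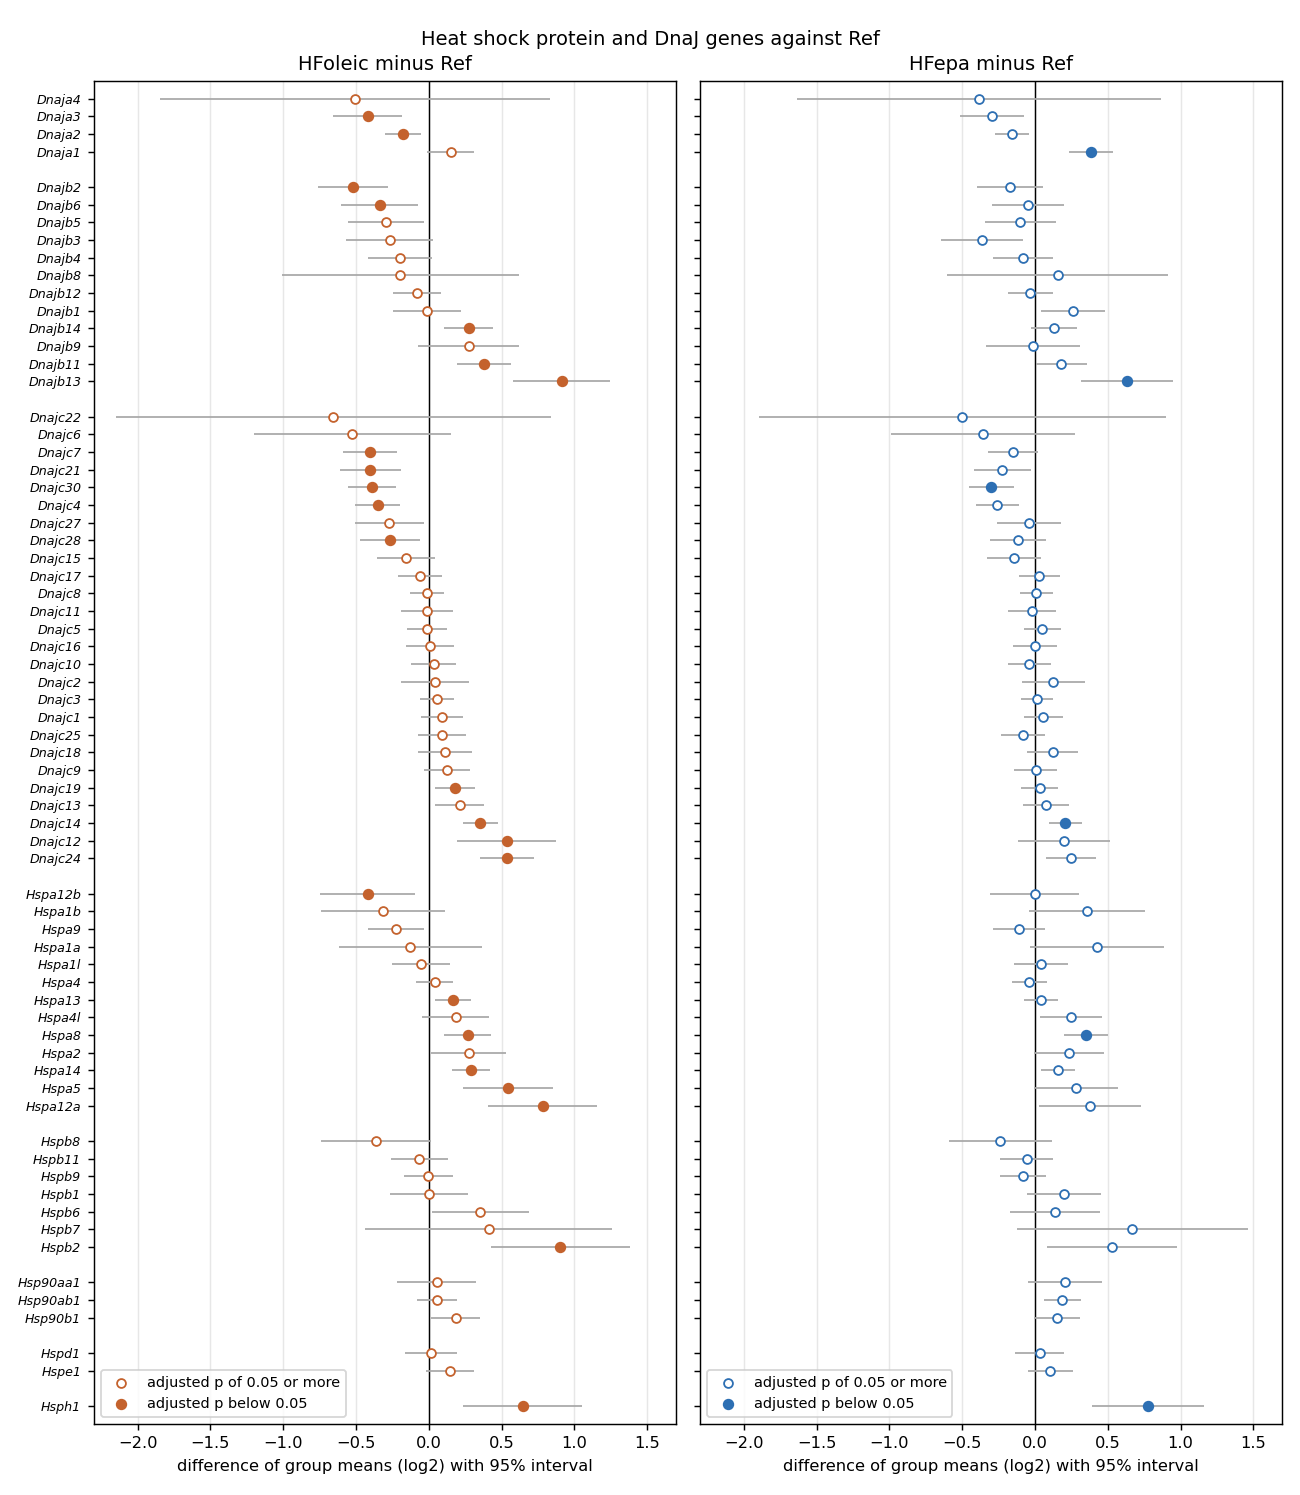
Log2 fold change of each of the 68 tested members against Ref, by family, in HFoleic and in HFepa mice. Lines are 95% intervals and filled symbols have an adjusted p below 0.05. Filled symbols stand on both sides of 0 in HFoleic mice (14 higher, 10 lower), and 6 are filled in HFepa mice.

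Hsph1 and Hspa8 of the cytosolic Hsp70 machine were called higher in both high-fat groups. Hsph1 encodes an Hsp110 protein, a nucleotide exchange factor of Hsp70 (NM_013559, probe on chromosome 5, 150419744 to 150419803, mm9). Its level was 10.46, 10.71 and 11.15 in Ref mice (lowest, median and highest), 10.78, 11.51 and 11.96 in HFoleic mice and 11.11, 11.52 and 12.07 in HFepa mice. The high-fat groups lay mostly above Ref, with an overlap at the top of Ref. The log2 fold change was 0.64 ± 0.20 (SE, adjusted p = 0.0174) in HFoleic and 0.78 ± 0.18 (adjusted p = 0.0345) in HFepa mice against Ref. Among the 3 tested Hsph1 probes 2 were called in each high-fat group, and the lowest value in HFoleic mice was 0.12. The call in HFoleic mice held without any single array and without the 4 arrays that stood apart. That in HFepa mice was lost without any of 9 arrays (Ref mice 2, 3, 4, 5 and 6 and HFepa mice 1, 5, 6 and 7), with an adjusted p of at most 0.0730, and without the 4 arrays, where the change was 0.95 (adjusted p = 0.127).

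Hspa8 encodes Hsc70, the constitutive Hsp70 of the cytosol (NM_031165, probe on chromosome 9, 40612755 to 40613050, mm9, the outer ends of the probe). It lay at 14.73, 14.81 and 14.91 in Ref, 14.94, 15.06 and 15.26 in HFoleic and 14.98, 15.16 and 15.38 in HFepa mice. Every mouse of both high-fat groups was above every Ref mouse. The log2 fold change against Ref was 0.27 ± 0.08 (adjusted p = 0.0132) in HFoleic and 0.35 ± 0.07 (adjusted p = 0.0239) in HFepa mice, and all 4 of its probes were called in both. The HFoleic call held without any single array. The HFepa call was lost without Ref mouse 3 (adjusted p = 0.0606), Ref mouse 6 (0.0619) or HFepa mouse 6 (0.0580). Without the 4 arrays that stood apart the changes were 0.25 (adjusted p = 0.0890) and 0.34 (adjusted p = 0.174).

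Dnaja1 encodes a major J protein partner of Hsc70 in the cytosol (NM_001164671, probe on chromosome 4, 40679954 to 40680014, mm9). Its level was 13.79, 13.94 and 14.10 in Ref, 13.99, 14.13 and 14.18 in HFoleic and 14.04, 14.36 and 14.54 in HFepa mice. It was the member called in HFepa but not in HFoleic mice against Ref, with a log2 fold change of 0.38 ± 0.07 (adjusted p = 0.0158) in HFepa and 0.15 ± 0.08 (adjusted p = 0.147) in HFoleic mice. The ranges of HFepa and Ref overlapped. The difference between the high-fat groups was 0.23 with a 95% interval of 0.08 to 0.38 (adjusted p = 0.126), so it was not called. The HFepa call held without any single array. Without the 4 arrays that stood apart the change was 0.35 (adjusted p = 0.145). Of the 3 tested Dnaja1 probes, 1 was called in HFepa mice.

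**Figure D2:**
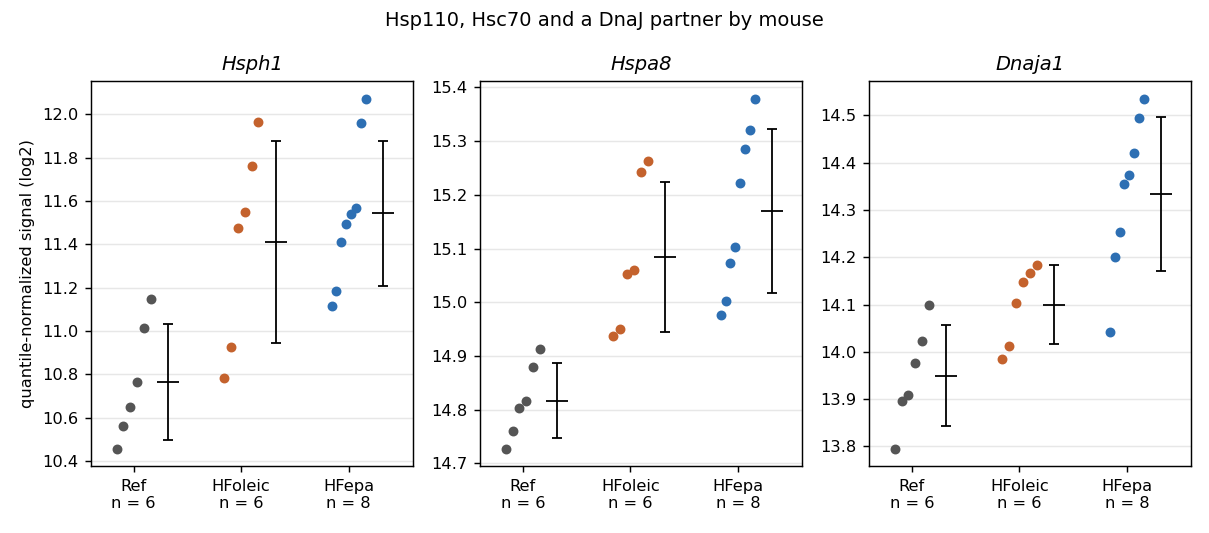
Level of Hsph1, Hspa8 and Dnaja1 in each mouse of the Ref, HFoleic and HFepa groups (log2 quantile-normalized signal), with mean ± SD as the black bar. Hspa8 is above the highest Ref mouse (14.91) in every HFoleic and HFepa mouse, while Hsph1 and Dnaja1 overlap with Ref.

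Apart from Hsph1, Hspa8 and Dnaja1, no member of the heat-inducible list was called. That list of 11 members (Hspa1a, Hspa1b, Hspa8, Hsph1, Hsp90aa1, Hsp90ab1, Hspb1, Dnajb1, Dnaja1, Hspd1 and Hspe1) had 2 called higher in HFoleic and 3 called higher in HFepa mice against Ref, and none lower. This is 18.2% of the list beside 31.8% of all genes in HFoleic and 27.3% beside 2.46% in HFepa mice. Its median log2 fold change was 0.05 in HFoleic and 0.26 in HFepa mice, against -0.04 and -0.02 over all genes, with 8 and 11 of 11 values above 0, where 43.2% and 45.0% of all genes were above 0. The mean level of the list was 12.97 to 13.13 in Ref, 13.04 to 13.17 in HFoleic and 13.13 to 13.76 in HFepa mice. HFepa mouse 3 had the 13.76, and the next HFepa mouse had 13.45. The list was chosen with earlier results of these data known. Its 3 calls in HFepa mice were all lost without the 4 arrays that stood apart. Hsp90aa1 and Hsp90ab1, the inducible and the constitutive Hsp90 of the cytosol, were among the 8 that were not called in HFepa mice. Hsp90ab1 had a level of 15.43, 15.53 and 15.60 in Ref, 15.41, 15.62 and 15.70 in HFoleic and 15.53, 15.70 and 15.94 in HFepa mice.

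The stress-inducible Hsp70 genes Hspa1a and Hspa1b and their J protein Dnajb1 had a wide spread within the HFepa group. Hspa1a was at 9.13, 9.33 and 9.71 in Ref, 9.07, 9.26 and 9.45 in HFoleic and 9.21, 9.72 and 11.03 in HFepa mice. Hspa1b was at 9.37, 9.50 and 9.85 in Ref, 9.14, 9.16 and 9.41 in HFoleic and 9.41, 9.67 and 10.89 in HFepa mice. These genes are near-identical copies next to each other on chromosome 17, so their probes may share signal and do not count as separate evidence.

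HFepa mice 3, 5 and 7 were the high ones. Hspa1a reached 11.03, 10.06 and 10.33 and Hspa1b 10.89, 10.15 and 10.45 in them, above all Ref and HFoleic mice. Dnajb1 had 13.23 in HFepa mouse 3 and 13.14 in HFepa mouse 7, against 12.36, 12.57 and 12.69 in Ref and 12.29, 12.54 and 12.74 in HFoleic mice. Across the 20 mice, as deviations from the group means, Hspa1b went with Dnajb1 at Pearson's r = 0.79 (permutation within groups, p = 0.00214, adjusted p = 0.0107 over 10 relations) and Spearman's rho = 0.61 (permutation p = 0.0216, adjusted p = 0.0860). Without HFepa mice 3 and 7, which lay farthest from the median of Hspa1b, r was 0.54. It was 0.94 within HFepa, but 0.00 within Ref and 0.05 within HFoleic mice, so the relation rests on the HFepa group.

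No group difference of these genes was called. Between HFepa and HFoleic mice the log2 fold change was 0.67 for Hspa1b (95% interval 0.27 to 1.07, adjusted p = 0.120), 0.56 for Hspa1a (0.10 to 1.02, adjusted p = 0.169) and 0.27 for Dnajb1 (0.05 to 0.49, adjusted p = 0.159). Against Ref the values in HFepa mice were 0.36 for Hspa1b (adjusted p = 0.296), 0.43 for Hspa1a (adjusted p = 0.277) and 0.26 for Dnajb1 (adjusted p = 0.166). HFepa mice 3 and 7 were both on slide 3, and within that slide Hspa1b was higher in HFepa than in Ref by 1.23, against -0.04 within slide 1 and 0.15 within slide 2. Between HFepa and HFoleic the same values were 1.39, 0.47 and 0.44. With the slide as a block that difference passed the threshold for Hspa1b (0.73, adjusted p = 0.0379), where 1297 of all 39390 probes passed it.

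**Figure D3:**
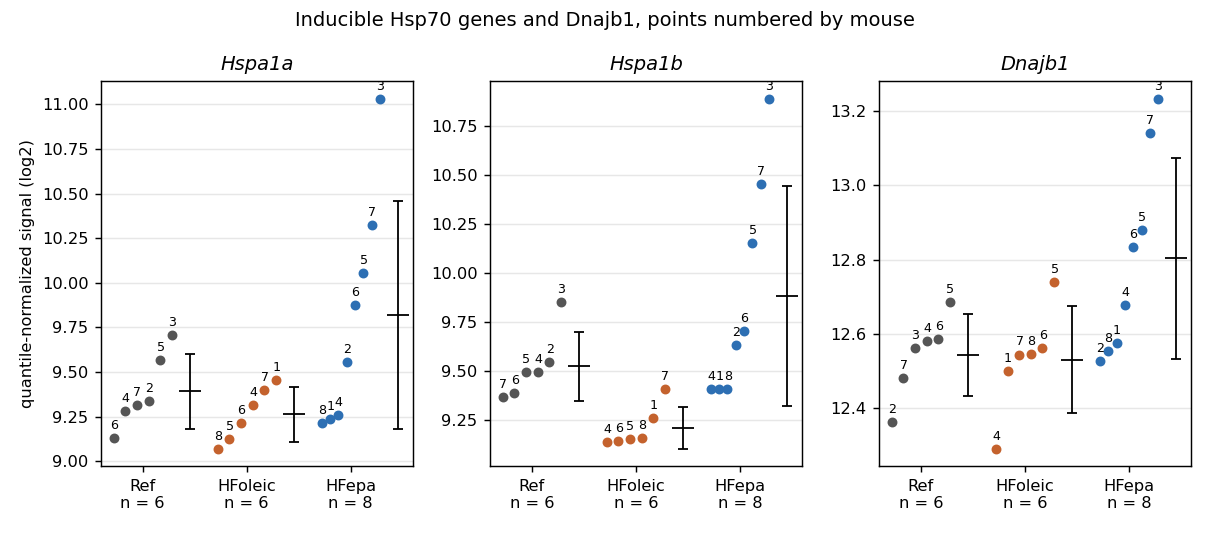
Level of Hspa1a, Hspa1b and Dnajb1 in each mouse (log2 quantile-normalized signal), numbered by mouse, with mean ± SD as the black bar. HFepa mice 3 and 7 are at the top for all 3 genes, and HFepa mouse 5 follows.

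The promoters of heat-inducible members are shown to set genes that were called beside genes that were not. RefSeq windows of the 250 bases before the transcript start (GRCm38.p6) were searched for a heat shock element of 2 units, TTCNNGAA or GAANNTTC, and of 3 units, TTCNNGAANNTTC or GAANNTTCNNGAA. These letters read the same on both strands or are listed for both, and each element of 3 units contains the shorter element. The element of 2 units was in 12.8% of all 32851 windows and in 16 of 74 windows (21.6%) of the 57 members that had any, in 14 genes. That of 3 units was in 0.466% of all windows and in 4 member windows (5.41%), of Dnajb6, Hspd1 and Hspe1. Of the 13 tested genes with the element of 2 units, Hsph1 was called higher and Dnajb6 lower in HFoleic mice, and Hsph1 and Dnaja1 were called higher in HFepa mice. Over all tested genes 31.8% were called in HFoleic and 2.46% in HFepa mice. A match is only a description of the letters. The windows of Hspa1a (chr17:34972157-34972406, minus strand) and Hspa1b (chr17:34959239-34959488, minus strand) have 247 of 250 bases in common. Those of Dnaja1 (chr4:40722218-40722467, plus strand), Hspe1 (chr1:55087898-55088147, plus strand) and Dnajb6 (chr5:29735648-29735897, plus strand) and 30 bases of that of Hsph1 (chr5:149636351-149636380, minus strand) follow, 5′ to 3′ along the gene, with the matches in capitals.
Hspa1a: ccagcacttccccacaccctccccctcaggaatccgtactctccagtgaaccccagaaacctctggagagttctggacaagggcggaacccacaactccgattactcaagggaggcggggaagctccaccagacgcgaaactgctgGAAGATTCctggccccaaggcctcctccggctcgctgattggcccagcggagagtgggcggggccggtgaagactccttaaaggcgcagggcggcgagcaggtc
Hspa1b: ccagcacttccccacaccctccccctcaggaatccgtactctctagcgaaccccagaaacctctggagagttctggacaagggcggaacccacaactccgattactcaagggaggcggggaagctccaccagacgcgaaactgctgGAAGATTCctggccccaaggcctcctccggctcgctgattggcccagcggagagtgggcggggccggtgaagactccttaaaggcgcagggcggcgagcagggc
Hsph1: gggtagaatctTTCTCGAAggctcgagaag
Dnaja1: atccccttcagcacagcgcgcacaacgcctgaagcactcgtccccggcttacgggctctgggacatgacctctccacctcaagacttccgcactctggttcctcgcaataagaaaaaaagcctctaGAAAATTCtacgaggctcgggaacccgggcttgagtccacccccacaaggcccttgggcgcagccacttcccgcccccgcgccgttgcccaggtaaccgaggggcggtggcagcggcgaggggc
Hspe1: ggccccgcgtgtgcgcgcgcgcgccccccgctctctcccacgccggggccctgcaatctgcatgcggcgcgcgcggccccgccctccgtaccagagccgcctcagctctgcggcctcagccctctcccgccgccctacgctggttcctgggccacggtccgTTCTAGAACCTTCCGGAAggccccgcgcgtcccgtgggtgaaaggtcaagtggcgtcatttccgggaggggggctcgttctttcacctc
Dnajb6: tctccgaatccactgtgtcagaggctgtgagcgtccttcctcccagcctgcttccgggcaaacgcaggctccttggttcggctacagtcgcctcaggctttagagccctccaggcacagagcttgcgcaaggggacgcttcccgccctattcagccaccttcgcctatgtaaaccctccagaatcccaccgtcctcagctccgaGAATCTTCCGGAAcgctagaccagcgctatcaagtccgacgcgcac

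Of the 13 tested members of the ER list, Hspa5, Hspa13, Dnajb11 and Dnajb14 were called higher in HFoleic than in Ref mice. None of the list was called lower there, and none was called in HFepa mice. Dnajc14, an ER-associated J protein described below, is not on this list and was called higher in both high-fat groups. Sil1, given below with the helpers of Hsp70, is not on this list either and was called lower in HFoleic mice. The 4 called genes are 30.8% of the list, with 31.8% of all genes called in either direction and 15.2% called higher. The other 9 members of the list were not called. Of the 4 probes of Dnajb12, an ER membrane J protein whose brightest probe was not called, 1 was called lower (-0.25, adjusted p = 0.00858). The median log2 fold change of the list was 0.11 in HFoleic and 0.04 in HFepa mice, against -0.04 and -0.02 over all genes. The log2 fold change was above 0 in 12 of 13 members in HFoleic and in 9 of 13 in HFepa mice.

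Hspa5 encodes BiP, the Hsp70 of the ER lumen and the sensor partner of the unfolded protein response (NM_022310, probe on chromosome 2, 34631913 to 34631972, mm9). Its level was 14.43, 14.60 and 15.03 in Ref, 14.81, 15.12 and 15.60 in HFoleic and 14.48, 14.89 and 15.31 in HFepa mice. HFoleic mice overlapped with Ref through Ref mouse 5 at 15.03, since the next Ref mouse had 14.64. The log2 fold change was 0.54 ± 0.15 (adjusted p = 0.00871) in HFoleic and 0.28 (95% interval -0.01 to 0.57, adjusted p = 0.254) in HFepa mice against Ref. All 3 probes of the gene were called in HFoleic mice.

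Dnajb11 (ERdj3), a J protein of the ER lumen that works with BiP, lay at 12.17, 12.29 and 12.41 in Ref, 12.37, 12.70 and 12.83 in HFoleic and 12.30, 12.43 and 12.86 in HFepa mice. Its log2 fold change was 0.38 ± 0.09 (adjusted p = 0.00383) in HFoleic and 0.18 (adjusted p = 0.227) in HFepa mice, with the ranges of HFoleic and Ref overlapping by a narrow margin. Dnajb14, a J protein of the ER membrane, was at 11.59, 11.71 and 11.83 in Ref and 11.85, 11.99 and 12.11 in HFoleic mice, which did not overlap. Its log2 fold change was 0.27 ± 0.08 (adjusted p = 0.0139). Hspa13, an Hsp70 of the microsomal fraction, was higher by 0.17 ± 0.06 (adjusted p = 0.0368), a call that was lost without any of 7 arrays (Ref mice 2, 3, 4 and 6 and HFoleic mice 1, 4 and 8, adjusted p up to 0.0857).

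The members Hsp90b1 and Dnajc3 did not pass the test. Hsp90b1 (GRP94), the Hsp90 of the ER, had 14.80, 14.87 and 14.97 in Ref, 14.85, 15.00 and 15.28 in HFoleic and 14.81, 15.02 and 15.20 in HFepa mice, with 0.18 (adjusted p = 0.0898) in HFoleic vs. Ref. Dnajc3 (p58IPK), the inhibitor of the eIF2α kinase PERK, had a median of 10.73 in Ref, 10.80 in HFoleic and 10.70 in HFepa mice, with adjusted p = 0.465 in HFoleic vs. Ref. Between HFepa and HFoleic mice Hspa5 differed by -0.26 (95% interval -0.55 to 0.02, adjusted p = 0.285) and Dnajb11 by -0.20 (-0.37 to -0.02, adjusted p = 0.193), neither of which was called. Without the 4 arrays that stood apart, all 4 calls of the ER list in HFoleic mice were lost with the direction kept. The values were 0.51 for Hspa5 (adjusted p = 0.0664), 0.31 for Dnajb11 (0.0620), 0.28 for Dnajb14 (0.0714) and 0.12 for Hspa13 (0.218).

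**Figure D4:**
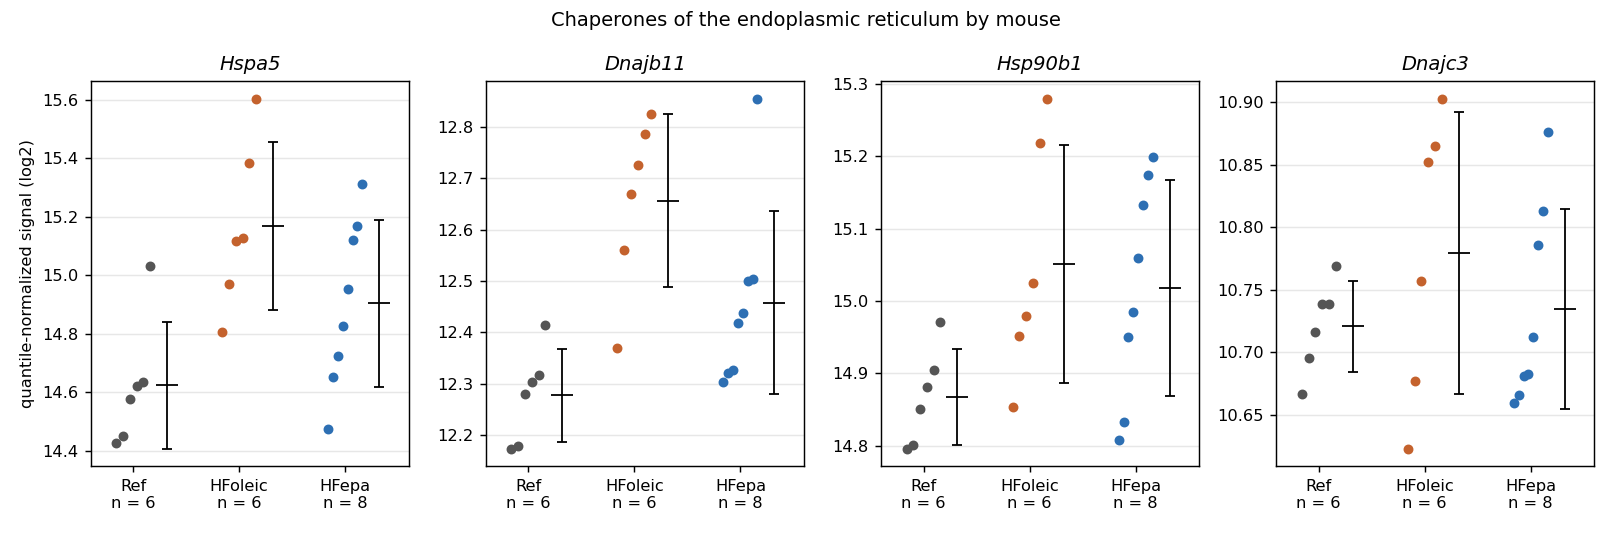
Level of Hspa5, Dnajb11, Hsp90b1 and Dnajc3 in each mouse of the Ref, HFoleic and HFepa groups (log2 quantile-normalized signal), with mean ± SD as the black bar. Ref mouse 5 is the Ref point inside the HFoleic range of Hspa5 at 15.03, and HFepa mouse 1 is the highest for Dnajb11 at 12.86.

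The ER stress element, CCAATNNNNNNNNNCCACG or its reverse complement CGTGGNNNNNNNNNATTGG, was in 0.113% of all windows and in 3 of the 74 member windows (4.05%). These were the windows of Hspa5 (chr2:34771840-34772089, plus strand), which was called higher in HFoleic mice, and of Hsp90b1 (chr10:86705445-86705694, minus strand) and Dnajc3 (chr14:118937682-118937931, plus strand), which were not called. They are printed from RefSeq (GRCm38.p6) to show that members with the same element were on either side of the threshold, 5′ to 3′ along the gene with the element in capitals.
Hspa5: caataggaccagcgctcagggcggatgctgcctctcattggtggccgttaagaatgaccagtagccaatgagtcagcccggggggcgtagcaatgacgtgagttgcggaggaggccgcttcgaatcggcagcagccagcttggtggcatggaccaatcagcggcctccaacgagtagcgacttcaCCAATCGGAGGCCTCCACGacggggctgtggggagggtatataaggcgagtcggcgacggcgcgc
Hsp90b1: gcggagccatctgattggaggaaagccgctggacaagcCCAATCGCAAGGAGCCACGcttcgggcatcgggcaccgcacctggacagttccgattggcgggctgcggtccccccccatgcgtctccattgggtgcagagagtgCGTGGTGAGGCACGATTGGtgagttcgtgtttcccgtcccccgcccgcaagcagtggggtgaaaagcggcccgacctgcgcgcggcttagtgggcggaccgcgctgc
Dnajc3: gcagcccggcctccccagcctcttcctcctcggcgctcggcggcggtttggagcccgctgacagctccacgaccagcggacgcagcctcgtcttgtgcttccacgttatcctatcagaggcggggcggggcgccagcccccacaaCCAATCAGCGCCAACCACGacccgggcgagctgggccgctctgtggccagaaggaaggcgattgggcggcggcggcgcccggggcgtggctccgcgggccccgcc

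Of 8 tested members of the mitochondrial folding and import machinery, Dnaja3 and Dnajc30 were called lower and Dnajc19 was called higher in HFoleic mice, which is 37.5% beside 31.8% of all genes. In HFepa mice Dnajc30 was called lower (12.5%, beside 2.46% of all genes). The chaperonin genes Hspd1 and Hspe1 were not called in any comparison. Dnajc30, a J protein linked to ATP synthase, was at 11.82, 11.99 and 12.19 in Ref, 11.46, 11.61 and 11.78 in HFoleic and 11.56, 11.68 and 11.93 in HFepa mice. No HFoleic mouse reached the Ref range, while HFepa and Ref overlapped. Its log2 fold change was -0.39 ± 0.08 (adjusted p = 0.00158) in HFoleic and -0.30 ± 0.07 (adjusted p = 0.0402) in HFepa mice. The HFoleic call held without any single array and without the 4 arrays that stood apart. The HFepa call was lost without any of 11 arrays (Ref mice 3, 4, 5 and 6, HFoleic mice 7 and 8 and HFepa mice 1, 2, 5, 6 and 7, adjusted p up to 0.0991), and without the 4 arrays (-0.32, adjusted p = 0.178).

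Dnaja3, the J protein of mitochondrial Hsp70, was at 12.28, 12.42 and 12.75 in Ref, 11.93, 12.05 and 12.25 in HFoleic and 11.89, 12.20 and 12.57 in HFepa mice. HFoleic and Ref did not overlap, and the log2 fold change was -0.42 ± 0.11 (adjusted p = 0.00842). Dnajc19, a subunit of the motor that pulls proteins through the inner membrane, went the other way with 0.18 ± 0.06 (adjusted p = 0.0404). The call of Dnajc19 was lost without any of 8 arrays (Ref mice 2, 3, 4 and 6 and HFoleic mice 4, 6, 7 and 8, adjusted p up to 0.101). Hspa9 (mortalin), the mitochondrial Hsp70 itself, had 14.02, 14.22 and 14.51 in Ref, 13.87, 14.04 and 14.20 in HFoleic and 13.81, 14.19 and 14.39 in HFepa mice, with -0.22 (adjusted p = 0.0733) in HFoleic vs. Ref. Without the 4 arrays that stood apart Dnaja3 was at -0.38 (adjusted p = 0.0723) and Dnajc19 at 0.16 (adjusted p = 0.147).

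Among the remaining J proteins the largest called rise in HFoleic mice was that of Dnajb13, known from the radial spokes of sperm flagella and cilia (probe on chromosome 7, 107654635 to 107654694, mm9). It was at 6.72, 7.09 and 7.49 in Ref, 7.53, 8.11 and 8.25 in HFoleic and 7.16, 7.71 and 8.03 in HFepa mice. HFoleic and Ref did not overlap, and the probe was above background on all 20 arrays. Its log2 fold change was 0.91 ± 0.16 (adjusted p = 6.75e-04) in HFoleic and 0.63 ± 0.15 (adjusted p = 0.0346) in HFepa mice. Of these calls the first held without any single array and without the 4 arrays that carried testis transcripts. The call in HFepa mice was lost without any of 8 arrays (Ref mice 3, 4, 5 and 6 and HFepa mice 1, 4, 6 and 7, adjusted p up to 0.0776), and without those 4 arrays (0.65, adjusted p = 0.177).

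Dnajc24, a J protein of diphthamide synthesis on elongation factor 2, was at 10.80, 10.89 and 11.09 in Ref, 11.31, 11.46 and 11.64 in HFoleic and 10.77, 11.19 and 11.43 in HFepa mice. All HFoleic mice lay above all Ref mice, and most HFepa mice lay in the gap between these ranges. The log2 fold change was 0.54 ± 0.09 (adjusted p = 4.93e-04) in HFoleic and 0.25 (adjusted p = 0.104) in HFepa mice, and without the 4 arrays that stood apart the HFoleic value was 0.47 (adjusted p = 0.0144). Between HFepa and HFoleic it was -0.29 (95% interval -0.46 to -0.12, adjusted p = 0.120). Dnajc14, an ER-associated J protein that helps receptors to the cell surface, was higher by 0.35 ± 0.06 (adjusted p = 4.81e-04) in HFoleic and by 0.21 ± 0.05 (adjusted p = 0.0469) in HFepa mice. Another probe of Dnajc14 had a value below 0 (-0.30, adjusted p = 0.0663 in HFoleic vs. Ref), and its HFepa call was lost without any of 15 arrays, all but Ref mice 2 and 7, HFoleic mouse 1 and HFepa mice 3 and 8 (adjusted p up to 0.121). On the arrays without testis transcripts Dnajc14 was at 0.33 (adjusted p = 0.0136) in HFoleic and 0.16 (adjusted p = 0.271) in HFepa mice.

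The J proteins Dnajb2, Dnajc7 and Dnajc21 were called lower in HFoleic mice. Dnajb2, a neuron-rich J protein that binds ubiquitin, was at 11.96, 12.29 and 12.40 in Ref, 11.45, 11.74 and 12.10 in HFoleic and 11.83, 12.05 and 12.49 in HFepa mice, with a log2 fold change of -0.52 ± 0.11 (adjusted p = 0.00241) in HFoleic mice. Dnajc7, which hands clients between Hsp70 and Hsp90, was at 13.75, 13.85 and 14.07 in Ref, 13.34, 13.50 and 13.73 in HFoleic and 13.52, 13.76 and 14.06 in HFepa mice, with -0.40 ± 0.09 (adjusted p = 0.0024). Dnajc21, a factor of ribosome assembly, fell by 0.40 on the log2 scale (adjusted p = 0.00547). HFoleic and Ref overlapped for Dnajb2 but not for Dnajc7 or Dnajc21. These 3 calls held without any single array and without the 4 arrays that stood apart. All tested probes of Dnajc7 (2) and Dnajc21 (4) were called lower, but only 1 of 2 of Dnajb2.

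The other called members were chosen for mention after their values were seen. Dnajc4 fell by 0.35 (adjusted p = 0.00189), Dnajb6, a suppressor of protein aggregation, by 0.34 (adjusted p = 0.0481), Dnajc28 by 0.27 (adjusted p = 0.0457) and Dnaja2, a cytosolic partner of Hsc70, by 0.18 (adjusted p = 0.0286), all on the log2 scale. Dnajc12, a partner of aromatic amino acid hydroxylases, was higher by 0.53 (adjusted p = 0.0167) and Hspa14, an Hsp70 bound to the ribosome, by 0.29 (adjusted p = 0.00184). All of these are HFoleic against Ref. Among the 4 tested probes of Hspa14, 2 were called, and the lowest value was -0.07. Dnajc4, Dnajc12 and Hspa14 kept their call without any single array. Those of Dnajb6, Dnajc28 and Dnaja2 were lost without any of 12 arrays (Ref mice 2 to 7, HFoleic mice 4, 5 and 6 and HFepa mice 4, 6 and 7, adjusted p up to 0.124), 9 arrays (Ref mice 4, 5, 6 and 7, HFoleic mice 4, 5 and 6 and HFepa mice 2 and 4, up to 0.111) and 3 arrays (Ref mouse 5 and HFoleic mice 5 and 8, up to 0.0695). Without the 4 arrays that stood apart, Dnaja2, Dnajb6, Dnajc12 (adjusted p = 0.0505) and Dnajc28 were not called.

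Hspa12a and Hspa12b, which encode atypical members of the Hsp70 family, were called in opposite directions in HFoleic mice. Hspa12a was at 11.71, 12.09 and 12.73 in Ref, 12.60, 12.95 and 13.07 in HFoleic and 11.66, 12.62 and 12.77 in HFepa mice. Its log2 fold change was 0.78 ± 0.18 (adjusted p = 0.00317) in HFoleic mice, where 1 of its 2 tested probes was called. Hspa12b, an endothelial gene, was at 12.17, 12.26 and 12.54 in Ref, 11.23, 11.90 and 12.34 in HFoleic and 11.84, 12.38 and 12.69 in HFepa mice, with -0.42 ± 0.16 (adjusted p = 0.0477). Of 8 endothelial markers none was called in any comparison. Their log2 fold change was below 0 in 6 and above 0 in 2 in HFoleic vs. Ref (median -0.09). In HFepa vs. HFoleic it was above 0 in all 8 (median 0.13). The part of endothelial cells in the values of Hspa12b was not tested. The call of Hspa12b was lost without any of 15 arrays, all but HFoleic mice 1 and 7 and HFepa mice 1, 3 and 4 (adjusted p up to 0.130), and without the 4 arrays that stood apart (adjusted p = 0.117), while that of Hspa12a held in both cases. Between HFepa and HFoleic mice the differences were -0.40 for Hspa12a (95% interval -0.76 to -0.05, adjusted p = 0.186) and 0.42 for Hspa12b (0.11 to 0.72, adjusted p = 0.141).

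Of the 7 tested genes with an Hspb name, 1 was called in HFoleic and 0 in HFepa mice against Ref. This is 14.3% and 0%, beside 31.8% and 2.46% of all genes. Hspb2, known from muscle (probe on chromosome 9, 50559211 to 50559270, mm9), was at 8.88, 9.57 and 10.08 in Ref, 9.87, 10.57 and 10.84 in HFoleic and 9.21, 10.13 and 10.74 in HFepa mice. HFoleic overlapped with the top of Ref, and the log2 fold change was 0.90 ± 0.23 (adjusted p = 0.00566) in HFoleic and 0.53 (adjusted p = 0.166) in HFepa mice. Without the 4 arrays that stood apart it was 0.78 (adjusted p = 0.0524). Its head-to-head neighbour Cryab (probe on chromosome 9, 50564566 to 50564625, mm9), a small heat shock protein outside the Hspb naming, was at 12.80, 13.27 and 14.07 in Ref, 13.81, 14.43 and 14.63 in HFoleic and 13.21, 14.18 and 14.34 in HFepa mice, with 1.00 ± 0.21 (adjusted p = 0.00165) and 0.73 ± 0.19 (adjusted p = 0.0485) against Ref. Of 9 tested skeletal muscle markers 2 (Myh1 and Pvalb) were called higher in HFoleic mice (22.2%, beside 31.8% of all genes). In that list 4 log2 fold changes were above 0 and 5 below, with a median of -0.01. The mean level of the list was 7.01 to 7.42 in Ref, 7.28 to 7.49 in HFoleic and 7.12 to 7.54 in HFepa mice. The part of muscle in the result was not tested. Hspb6 and Hspb8, which muscle also uses, were not called on their brightest probe, though another probe of Hspb6 was called higher in HFoleic mice (0.58), nor was Hspb1, the general small heat shock protein of the cytosol.

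The members spread within groups about as much as other genes, with a median within-group SD of 0.163 against 0.174 over all tested genes. Dnajc22 (1.34) and Dnaja4 (1.20), named for their spread after the values were seen, had the largest SD, followed by Hspb7 (0.758), Dnajb8 (0.726) and Dnajc6 (0.603). Dnaja4, a cytosolic J protein, was at 13.24 in Ref mouse 3, 13.90 in Ref mouse 6, 13.33 in HFoleic mouse 5 and 13.39 in HFepa mouse 4, the same 4 arrays that carried testis markers. HFepa mouse 7 followed at 12.20, with a mean testis marker level within the range of the other mice, and all other mice were between 10.47 and 10.97. Dnajc22, a membrane J protein, was at 8.61, 9.33, 8.49 and 8.66 on the same 4 arrays and 7.25 in HFepa mouse 7, with 5.29 to 6.67 elsewhere. It was above background on 15 of 20 arrays (5 Ref, 3 HFoleic and 7 HFepa). Neither gene was called in any comparison.

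**Figure D5:**
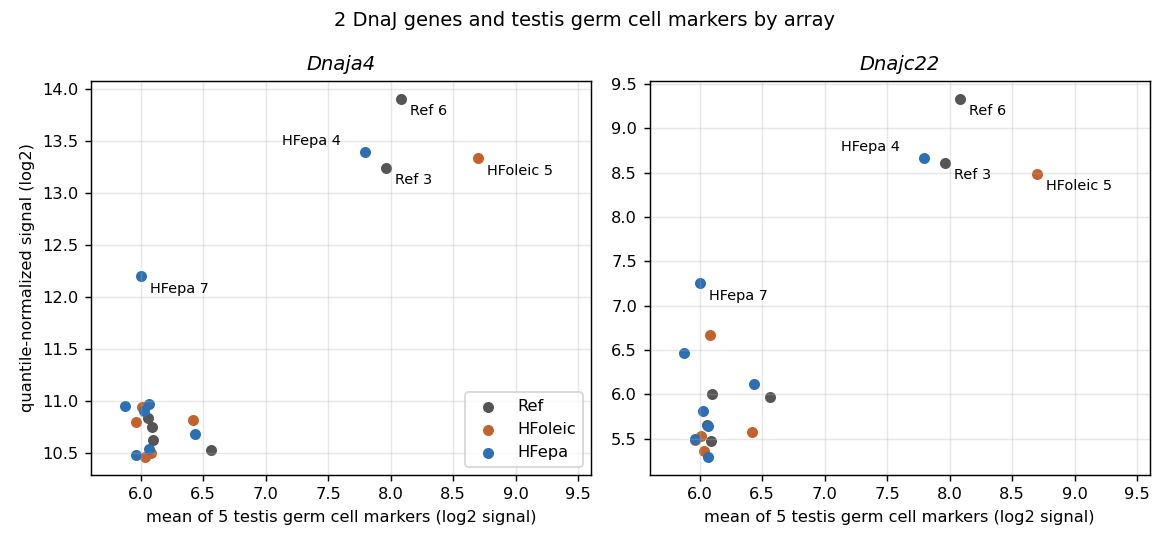
Level of Dnaja4 and Dnajc22 in each mouse against the mean level of 5 testis germ cell markers (all log2 quantile-normalized signal). The 4 named arrays with a marker mean of 7.79 or more are high for both genes, and HFepa mouse 7, with 12.20 for Dnaja4 and 7.25 for Dnajc22, is the next highest for both at a low marker mean.

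Regulators and partners outside the module were taken from lists of their own. Of 4 genes of heat shock factors and their binding protein, Hsf1 was called lower in HFoleic mice (25%, beside 31.8% of all genes). Hsf1 is the main inducer of heat shock genes. It was at 10.46, 10.63 and 10.73 in Ref, 9.998, 10.21 and 10.55 in HFoleic and 10.23, 10.49 and 10.84 in HFepa mice, with -0.40 ± 0.10 (adjusted p = 0.00457) in HFoleic and -0.13 (adjusted p = 0.457) in HFepa mice. Of 13 helpers of Hsp70, Hspbp1 was called higher and Bag1, Bag4 and Sil1 lower in HFoleic mice, and none was called in HFepa mice. The 4 are 30.8% of that list, beside 31.8% of all genes. Bag1, a nucleotide exchange factor, fell by 0.50 on the log2 scale (adjusted p = 0.00159), and Bag3, which heat induces, was at -0.03 (adjusted p = 0.844).

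Of 14 co-chaperones of Hsp90, Ahsa1 was called higher and Cdc37l1 and Fkbp5 lower in HFoleic mice, and Ahsa1 was called higher in HFepa mice. This is 21.4% of the list in HFoleic and 7.14% in HFepa mice, beside 31.8% and 2.46% of all genes. Ahsa1, the activator of the Hsp90 ATPase, was higher by 0.38 (adjusted p = 3.61e-04) in HFoleic and 0.25 (adjusted p = 0.0258) in HFepa mice. Fkbp5, which glucocorticoids induce, had the largest change of the list, -1.16 ± 0.23 (adjusted p = 0.00134) in HFoleic and -0.75 (adjusted p = 0.0655) in HFepa mice. Of 8 subunits of the cytosolic chaperonin TRiC, Cct4 was called lower in HFoleic mice (-0.30, adjusted p = 0.00104), which is 12.5% beside 31.8% of all genes. None of these lists had a member called in HFepa vs. HFoleic.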

How the data were processed

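RNA of visceral adipose tissue of 20 mice was labelled with Cy3 and hybridized to Agilent 1-colour arrays. The authors extracted spot intensities with Agilent Feature Extraction 10.10.1.1, and the deposited median intensity is linear, without background subtraction or normalization. A second deposited table holds log2 values that were filtered and quantile normalized by the authors, and served as an alternative. Control spots were left out, and spots marked by the software were missing on that array. Of the 62976 spots of an array, 59305 were not controls, and their intensities were put on the log2 scale. Probes well above background on at least 6 arrays were kept, then quantile normalized and averaged per probe (R 4.3.3, limma 3.58.1). These probes were tested with lmFit and eBayes, with 1 mean per group over all 20 arrays. Adjusted p-values are Benjamini–Hochberg over 39390 probes, at 0.05. The brightest tested probe stands for a gene. Of 40 members with over 1 tested probe, none had probes called in opposite directions, but in HFoleic vs. Ref 7 had another probe called where the brightest was not, and 7 the reverse. The p-values treat each mouse as independent. The labels do not say whether mice shared a litter or cage, which could make the p-values too small. The number of mice limits the precision. The steps were tested on simulated data. Relations between genes were tested by 1e+05 permutations within groups. Files give positions on mm9, and promoters are RefSeq on GRCm38.p6, in which all 70 member names are symbols. The slide of each array was read from the file set.

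Named were the 6 called members that rose most and the 6 that fell most in HFoleic vs. Ref, all called in the other comparisons, the smallest p of each family in HFepa vs. HFoleic, the heat-inducible, ER, mitochondrial and muscle lists, and Dnajb1. Members and lists were chosen with earlier results of these data known. Alternatives were the processed signal, normexp background correction (offset 50), the authors' log2 table, median centring, other filters, marked spots kept, slide or replicate blocks, array weights, an intensity trend, the compared groups only, other choices of probe and each array left out. Added after seeing the data was the fit without 4 arrays whose mean testis marker level was above 7.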

Additional observations from a re-analysis of the deposited data

Results flagged for a closer look

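Of 126 groups of member values tested for a mouse far from the rest of its group, 8 were past the 95% limit, and chance alone gives about 1 in 20. In HFepa mouse 3 Dnajb9 was high at 11.36, Hspa12a was low at 11.66 and Dnajc19 was low at 13.83. In HFepa mouse 1 Dnajb11 was high at 12.86, with the next HFepa mouse at 12.50. Ref mouse 5 was high for Hspa5 at 15.03 and low for Dnajc10 at 10.93. Ref mouse 3 was high for Hspa1b at 9.854, and HFoleic mouse 1 was high for Hspb8 at 12.60.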

How the results depend on the processing

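No called value changed direction under any setting. Of 24 called values in HFoleic vs. Ref under 13 settings, 283 of 312 kept their call, and 426 of 480 with each array left out. For the 6 calls in HFepa vs. Ref these were 57 of 78 and 74 of 120. All called values had the same sign within each of the 3 slides, where a group had 1 to 3 arrays. These are the arrays that gave the calls, so the shared sign is largely built in and is not separate evidence. The count in HFepa vs. Ref (6) was 3 on the processed signal, 1 with the compared groups only, 0 with the replicate block, 0 without the 4 arrays high in testis markers, and 1 to 12 with each array left out. In HFoleic vs. Ref (24) it was 14 with the replicate block, 11 without those 4 arrays and 19 to 27 with each array left out. The labels do not say whether replicate numbers pair mice, and the paper states that HFoleic and HFepa mice were matched for body weight. Same-numbered mice correlated at -0.59 to 0.56 as deviations from the group means. With 4 to 6 such pairs in a comparison, these values cannot decide whether mice were paired. For HFepa vs. HFoleic (0) a slide block gave 3 (Dnajc24, Dnajc7 and Hspa1b), with 1297 of all 39390 probes called. Array weights gave 9, with 4575 of all probes called. The count was 6 without HFepa mouse 1 (2867 of all probes), 3 without HFoleic mouse 1 (1663 of all probes) and 0 to 6 with each array left out. The cause was not tested. Values near 0 changed sign: Dnajb1 in HFoleic vs. Ref to 0.0600 by median centring, 0.0013 on the log2 values of the authors, 0.0355 with the replicate block, 0.00727 with array weights and -0.0554 to 0.0348 with each array left out, Hspa1a in HFoleic vs. Ref to 0.112 with the replicate block, and in HFepa vs. HFoleic Hsph1 to -0.0025 with array weights, Dnajc14 to 0.0866 and Hspa8 to -1.00607e-05 by the mean of its probes. Signal over background limits Dnajc22, which was above background on 15 of 20 arrays.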
